A study of Mus musculus with 3 samples.

Results

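The endoplasmic reticulum (ER) genes described here code for the proteins that bring a secreted protein into the ER, cut off its signal peptide, attach N-glycans, fold it and discard it when folding fails. The 51 genes were chosen by symbol, and each was represented by the brightest of its probe sets, as averaged across the 3 arrays. Of these, 49 had a probe set that names that gene alone, among 18193 genes with such a probe set. Srp54a and Sec61g share their probe sets with other genes, so their expression was not analysed here, and they enter the promoter search alone. The study profiled zymogenic cells, which secrete pepsinogen, parietal cells, which secrete acid, and pit cells, which secrete surface mucus, from the mouse stomach on Affymetrix whole-genome mouse arrays, with 1 array for each lineage. The sources used here give no strain, age or sex, and they name no treatment or genetic change. Each array holds RNA pooled from 4 to 5 mice and 3000 to 5000 cells taken by laser capture with a 7.5 µm spot, amplified from 20 ng. Zymogenic cells were collected at the base of gastric units, on other slides than the remaining lineages, as cells that stain for E-cadherin but for neither of the lectins GSII and DBA. Parietal cells were DBA-positive, autofluorescent cells of the pit zone, and pit cells were E-cadherin-positive, DBA-negative cells from the top of those units.

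A protein made for secretion is recognised while it is still on the ribosome by the signal recognition particle, which docks at its receptor and hands the chain to the Sec61 channel. In the ER lumen, signal peptidase removes the signal, oligosaccharyl transferase adds the N-glycan, and chaperones and disulfide-forming enzymes fold the chain. Chains that fail are pulled back to the cytosol and degraded, and stress in this compartment raises chaperones through the regulators ATF6, IRE1 with XBP1, and PERK. Cells that secrete much digestive enzyme, such as zymogenic cells, are known for a dense rough ER at their base.

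Values are intensities on a linear scale as deposited. A detection floor of 23.3 was taken from 80 probe sets for olfactory and vomeronasal receptors, and a fold against a value below it is a lower bound (at least N-fold). A level in zymogenic, parietal or pit cells is the value on that lineage's array. As each lineage had 1 array, there was no replicate error and no test, so each difference describes these arrays. Different probe sets of the same gene gave log2 differences between arrays that scattered with an SD of 0.50, which is 1.42-fold, over 781 combinations of gene and array pair. For the ER genes the SD was 0.32, or 1.25-fold, over 28 combinations. Across genes above the floor on both arrays, the median log2 difference was -0.47 for zymogenic minus parietal, -0.16 for zymogenic minus pit and 0.09 for parietal minus pit. These medians moved to -0.01, 0.07 and -0.10 after quantile normalization. After scaling to the hybridisation controls BioB and BioC they were -1.41, -0.18 and 1.10. Differences of the ER genes are therefore also given relative to these medians. BioB and BioC averaged 711, 303 and 712 on the zymogenic, parietal and pit arrays, while the Cre control averaged 9117, 9453 and 9268.

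Markers of the lineages were read on the same arrays. The summed intensity of zymogenic markers, of which 7 of 9 exceeded the floor, was 26035 in zymogenic, 3363 in parietal and 268 in pit cells. Parietal markers (8 of 13) summed to 1309, 5888 and 576 on the zymogenic, parietal and pit arrays. Atp4b, at 4402 in parietal cells, made up most of the sum there. Of the 8 markers, 4 were highest in parietal cells, while zymogenic and pit cells had 2 each. Atp4a read 261 in zymogenic against 214 in parietal cells, and Kcnq1 read 60.5 against 29.1. For zymogenic minus parietal, the median log2 difference of the parietal markers was 0.07 relative to all genes (4 genes). Pit markers (10 of 10) summed to 176, 20365 and 15145 on the zymogenic, parietal and pit arrays. The pit sum on the parietal array is mostly Gkn1 and Gkn2, at 10493 and 7987 against 8307 and 2723 on the pit array, while 7 of the 10 pit markers were highest on the pit array, with a median log2 difference of -0.71 for parietal minus pit. Endocrine markers (5 of 10) summed to 982 on the zymogenic array against 50.8 in parietal and 94.3 in pit cells, led by Chga at 453 and Ghrl at 298. Of B and plasma cell markers 2 of 9 exceeded the floor on any array, namely Cd79a, at 48.8 on the zymogenic array alone, and Sdc1, which was under the floor there. The plasma cell genes Jchain and Mzb1 were under the floor on all 3 arrays. Mucous neck cell markers (3 of 4) summed to 32.7, 462 and 169.5 on the zymogenic, parietal and pit arrays. In the same order, other immune markers (4 of 10) summed to 443, 213 and 97.4. Csf1r made up most of the zymogenic value, at 374, 111 and 22.4. Ptprc was just over the floor on the zymogenic array at 23.7, Lyz2 was highest on the parietal and Adgre1 on the pit array. Fibroblast, muscle and endothelial markers (5 of 11) summed to 336, 408 and 207. The 3′ beta-actin control read 77.0 in zymogenic, 619 in parietal and 332 in pit cells, and the 5′ control 5.23, 23.7 and 36.8. The Gapdh controls read 47.8, 198 and 92.9 at the 3′ end and 12.3, 22.4 and 14.0 at the 5′ end. Zymogenic cells came from slides of their own, so slide and cell type cannot be told apart there. In pooled cells, fewer cells of a type and less RNA per cell cannot be told apart, and the part of these differences in the results below was not tested.

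The zymogenic array was the highest of the 3 for most of the ER genes. Among the 39 members that exceeded the floor on any array, 24 (61.5%) were highest there, against 27.3% of all 4137 such genes. The parietal array was highest for 9 (23.1%, against 38.6% of all genes) and the pit array for 6 (15.4%, against 34% of all genes). The pit array was lowest for 23 (59.0%, against 33.3% of all genes), and the zymogenic and parietal arrays were lowest for 8 each (20.5%, against 51.6% and 15.1% of all genes). By at least 2-fold from both other arrays, 6 members stood higher in zymogenic cells, which is 15.4% of the 39 against 6.89% of all genes. They were Srpr of the signal recognition particle receptor, Spcs3 of signal peptidase, the chaperone Hyou1, the co-chaperone Dnajc3, the oxidase Ero1b and the degradation factor Herpud1. Ero1a was the 1 member at least 2-fold below both other arrays there, where 11.1% of all genes were. On the parietal array Stt3b alone was at least 2-fold above both (7.47% of all genes), and 0 were below (0.387% of all genes). On the pit array 0 members were above both (5.78% of all genes), and Sec61b, Dad1 and Hspa5 were at least 2-fold below both, or 7.69% against 2.61% of all genes. The zymogenic count was 13 after quantile normalization, where 11.1% of all genes passed, and 2 (Ero1b and Herpud1) after scaling to BioB and BioC, where 2.71% of all genes did. With that scaling 17 members (31.5% of all genes) were above both others on the parietal array and 11 (3.39% of all genes) below both on the pit array. The fold just failed on the zymogenic array for Creld2 at 1.99-fold over the nearer array, Krtcap2 at 1.97-fold, and Spcs2 and Sec11c at 1.96-fold each.

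In pairs of arrays, the median log2 difference of the members above the floor on both was 0.20 for zymogenic minus parietal (35 members), which is 0.68 above the median of all genes, and 27 of the 35 lay above that median. For zymogenic minus pit it was 0.57 (28 members), or 0.72 above all genes, with 19 of 28 above. For parietal minus pit it was 0.32 (29 members), or 0.23 above all genes, with 17 of 29 above. A difference of at least 2-fold was more frequent between zymogenic and pit cells than between the other pairs. Relative to the pit array, 14 of 39 members were 2-fold or more higher in zymogenic cells (11.8% of all genes tested in that pair) and 2 lower (21.3%). Relative to the parietal array, 7 of 39 were higher on the zymogenic array (8.76%) and 4 lower (24% of all genes). Between parietal and pit cells, 5 of 36 were higher on the parietal array (14.4%) and 1 was lower (7.7%). These pairs share arrays and are not independent of each other.

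**Figure D1:**
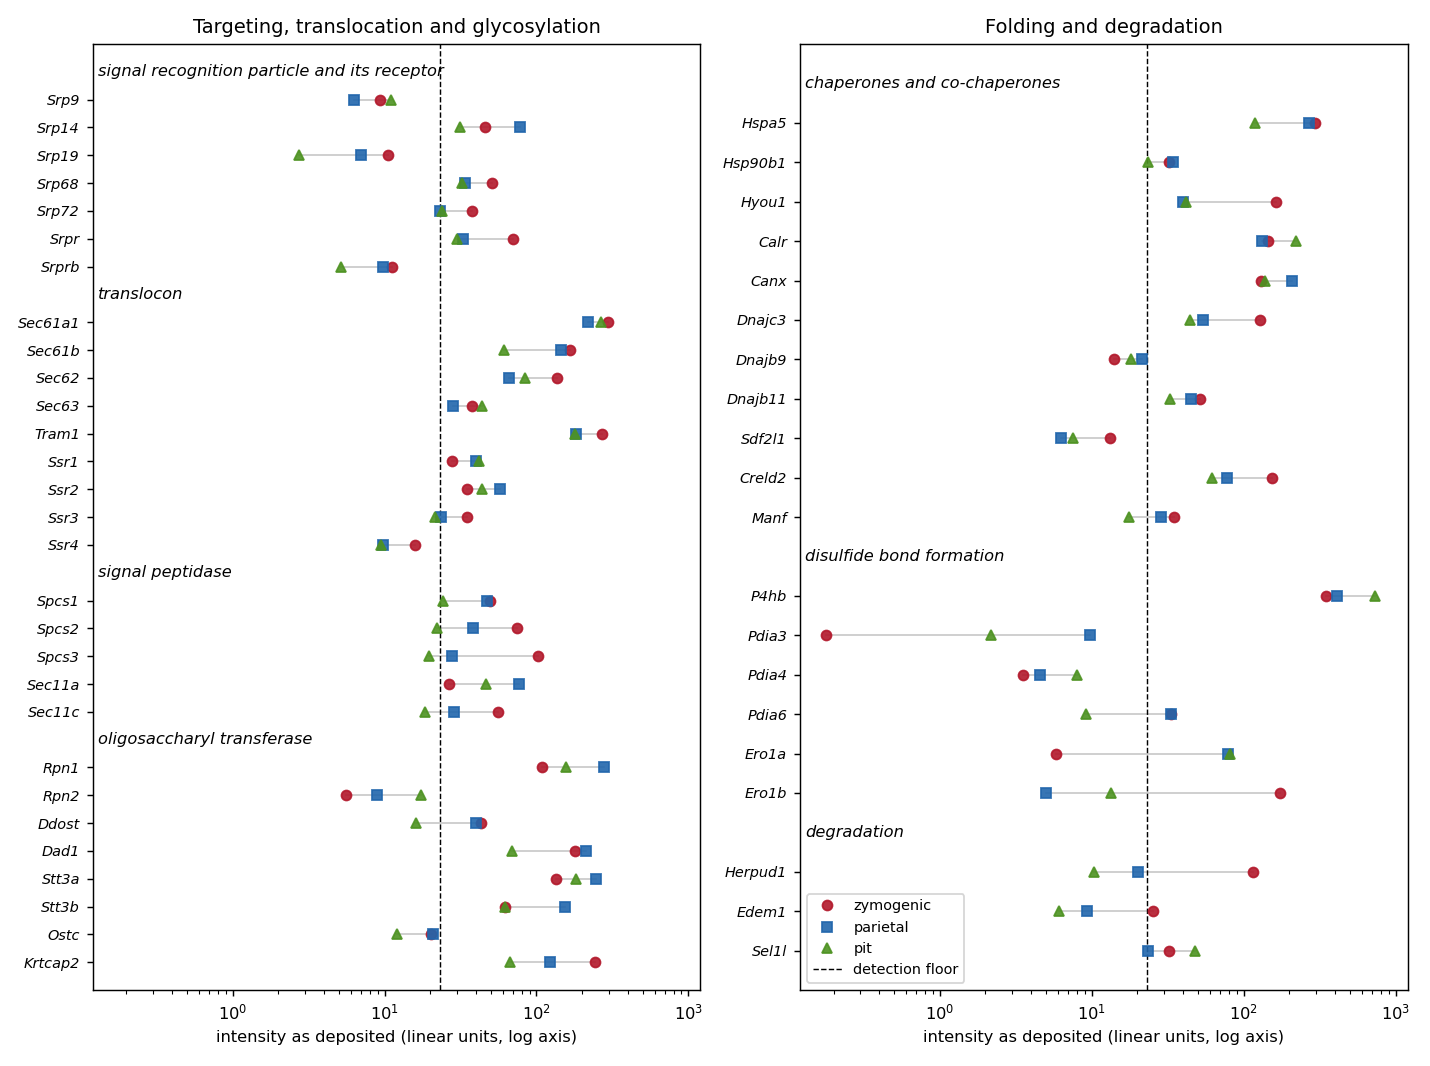
Intensity (linear units, log axis) of the 49 measured members on the zymogenic (red circles), parietal (blue squares) and pit (green triangles) arrays, grouped by role, with 1 array per lineage and no error bars. The dashed line is the detection floor of 23.3. Red circles lie furthest right for 24 of the 39 members that pass the floor, while Ero1a has its red circle furthest left and Rpn1, Stt3a and Stt3b have the blue square furthest right.

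Many genes of this compartment are known to answer to ER stress through a promoter sequence, the ER stress element, bound by NF-Y together with ATF6 or XBP1. It was searched on both strands, as CCAAT and CCACG with 9 bases of any kind between them, in RefSeq windows (GRCm38.p6) from 250 bases before to 50 bases after each annotated start, together with its second form, ATTGG and CCACG with 1 base between them. No member held both forms. The first was found in 8 of the 41 members with a window (19.5%), against 37 of 27025 genes (0.137%), and the second in 3 of 41 (7.32%), against 12 genes (0.0444%). As many genes of this compartment are already known for the element, a higher share among members was in part given beforehand and is not a test. Per window, the shares were 0.119% and 0.0365% of 32851 windows. The windows of the 3 members with a match and a 2-fold higher value in zymogenic cells, Ero1b (chr13:12565633-12565932, plus strand), Dnajc3 (chr14:118937682-118937981, plus strand) and Herpud1 (chr8:94386179-94386478, plus strand), are shown with those of Hspa5 (chr2:34771840-34772139, plus strand), a chaperone long known as a target of ER stress, and Ero1a (chr14:45318523-45318822, minus strand), which was lower in zymogenic cells and held no match. Capitals mark the letters of the element. In Ero1b the element lies on the opposite strand and is read as its reverse complement.
Ero1b: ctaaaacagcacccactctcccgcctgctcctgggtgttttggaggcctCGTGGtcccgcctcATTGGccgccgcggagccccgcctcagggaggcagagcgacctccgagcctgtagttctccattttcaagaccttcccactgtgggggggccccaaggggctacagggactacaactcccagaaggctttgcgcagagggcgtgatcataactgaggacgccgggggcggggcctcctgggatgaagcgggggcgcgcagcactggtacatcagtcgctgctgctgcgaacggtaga
Dnajc3: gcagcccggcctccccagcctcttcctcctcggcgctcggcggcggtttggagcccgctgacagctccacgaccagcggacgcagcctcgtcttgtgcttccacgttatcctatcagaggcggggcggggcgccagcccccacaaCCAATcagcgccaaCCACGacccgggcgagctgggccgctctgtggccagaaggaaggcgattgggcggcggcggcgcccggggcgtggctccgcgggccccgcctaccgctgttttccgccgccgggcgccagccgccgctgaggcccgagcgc
Herpud1: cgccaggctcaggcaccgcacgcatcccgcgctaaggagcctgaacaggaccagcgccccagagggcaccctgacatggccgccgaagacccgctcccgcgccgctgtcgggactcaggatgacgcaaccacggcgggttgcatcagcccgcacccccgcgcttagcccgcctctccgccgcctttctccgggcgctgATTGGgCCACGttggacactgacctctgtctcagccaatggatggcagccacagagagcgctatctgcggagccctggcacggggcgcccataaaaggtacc
Hspa5: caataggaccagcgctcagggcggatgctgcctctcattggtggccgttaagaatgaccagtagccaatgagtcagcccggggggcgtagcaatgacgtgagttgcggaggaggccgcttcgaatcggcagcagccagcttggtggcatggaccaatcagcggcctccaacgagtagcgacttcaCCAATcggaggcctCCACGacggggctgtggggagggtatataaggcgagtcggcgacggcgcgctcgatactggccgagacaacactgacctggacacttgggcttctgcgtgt
Ero1a: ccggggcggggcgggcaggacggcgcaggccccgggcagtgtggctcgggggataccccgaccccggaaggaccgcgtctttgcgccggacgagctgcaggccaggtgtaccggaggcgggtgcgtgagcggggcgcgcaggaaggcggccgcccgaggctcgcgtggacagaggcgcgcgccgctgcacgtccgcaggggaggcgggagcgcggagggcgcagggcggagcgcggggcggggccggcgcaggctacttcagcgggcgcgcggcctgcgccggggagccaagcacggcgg

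The matched sites alone, read on the strand of the element with its fixed letters in capitals, let the other members be compared. The first form was found in these genes, of which Hsp90b1 has 2 sites.
Ero1b: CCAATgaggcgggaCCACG
Dnajc3: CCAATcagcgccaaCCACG
Hspa5: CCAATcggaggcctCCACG
Creld2: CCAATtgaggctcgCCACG
Pdia6: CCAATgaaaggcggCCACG
Hsp90b1: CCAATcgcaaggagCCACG
Hsp90b1: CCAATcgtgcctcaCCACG
Calr: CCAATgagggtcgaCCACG
Canx: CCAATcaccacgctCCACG

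The second form was found in these genes.
Herpud1: ATTGGgCCACG
Dnajb11: ATTGGcCCACG
Krtcap2: ATTGGaCCACG

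The sites lie at chr15:88819520-88819538 in Creld2, chr12:17266491-17266509 in Pdia6, chr10:86705638-86705656 and chr10:86705533-86705551 in Hsp90b1, chr8:84847075-84847093 in Calr and chr11:50325800-50325818 in Canx. Those of the second form lie at chr8:94386377-94386387 in Herpud1, chr16:22857852-22857862 in Dnajb11 and chr3:89246490-89246500 in Krtcap2. The sites of Dnajb11 and Krtcap2 begin 7 and 17 bases after the start, and the remaining ones begin 52 to 212 bases before it. Besides Ero1b, the site lies on the strand opposite to the gene in Creld2, in Calr and, for the second one listed, in Hsp90b1. All 11 members with a match exceeded the floor on some array, and 8 of them were highest on the zymogenic array (27.3% of all genes were). Of the 20 members above the floor with a window and no match, 9 were. The genes with a match were not alike across lineages, since Calr was highest on the pit array and Canx and Hsp90b1 on the parietal array. Of the 4 members with a window among those 2-fold higher in zymogenic cells, 3 held a match, and Srpr did not. A match describes the letters in the window and is not evidence of binding.

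Targeting to the ER was represented by 7 measured genes of the signal recognition particle and its receptor, of which 4 exceeded the floor, each of them on all 3 arrays. Of these 4 genes, 3 were highest on the zymogenic array, as were 27.3% of all genes. Srpr, the receptor subunit that binds the particle, read 70.0 in zymogenic, 32.7 in parietal and 29.9 in pit cells, a 2.14-fold difference from the parietal array. Its further probe set was under the floor on all 3 arrays, and after scaling to BioB and BioC its log2 difference from the nearer array was -0.13. Srp68 and Srp72, which bind the particle's RNA as a pair, were also highest in zymogenic cells, with 51.1, 33.8 and 32.1 for Srp68 and 37.6, 23.3 and 23.8 for Srp72 on the zymogenic, parietal and pit arrays. Srp14, a subunit of the domain that pauses translation, was instead highest on the parietal array, with 46.0 in zymogenic, 78.1 in parietal and 31.4 in pit cells. Both of its further probe sets above the floor were also highest on the parietal array. The group's median log2 difference relative to all genes was 1.12 for zymogenic minus parietal, 0.82 for zymogenic minus pit and 0.02 for parietal minus pit, over 4 genes. Srp9, Srp19 and Srprb were under the floor on all 3 arrays.

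Of the translocon, 9 genes were measured and 8 exceeded the floor. The channel and its companions were mostly highest on the zymogenic array (27.3% of all genes were), with differences under 2-fold from the nearer array. Lowest there were 2 subunits of the translocon-associated protein complex, as were 51.6% of all genes. Their log2 differences for zymogenic minus parietal were -0.54 (Ssr1) and -0.71 (Ssr2), against a median of -0.47 for all genes. Sec61a1, which forms the pore, read 298, 219 and 267 on the zymogenic, parietal and pit arrays, and a further probe set gave 237, 164.5 and 205. Both probe sets were highest in zymogenic and lowest in parietal cells. Sec62, which helps proteins that enter after their synthesis, read 136 in zymogenic, 65.7 in parietal and 83.8 in pit cells. Tram1, a membrane protein beside the channel, read 268, 182 and 178 in that order, and its further probe set was also highest on the zymogenic array. Sec63, which couples the channel to the chaperone Hspa5, was highest on the pit array, with 37.4, 28.4 and 44.1. Sec61b, a small subunit of the channel, was low on the pit array, at 61.5 against 167 in zymogenic and 146 in parietal cells, and is measured by 1 probe set.

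The subunits of the translocon-associated protein complex, which helps some signal peptides to open the channel, did not share a direction. Ssr1 read 27.7 in zymogenic, 40.3 in parietal and 41.6 in pit cells, and Ssr2 read 34.9, 57.2 and 43.5. Ssr3 went the other way, with 34.9, 23.4 and 21.5, of which the pit value is under the floor. The further probe sets of Ssr1 and Ssr3 above the floor kept the same highest array. Ssr4 was under the floor on all 3 arrays. Over the translocon, the median relative to all genes was 0.89 for zymogenic minus parietal (8 genes), 0.31 for zymogenic minus pit and -0.13 for parietal minus pit (7 genes each).

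Signal peptidase genes were mostly highest on the zymogenic array. All 5 genes were measured and exceeded the floor, and 4 of them were highest there, as were 27.3% of all genes. Spcs3, an accessory subunit that is essential for cleavage in yeast, read 103 in zymogenic, 27.6 in parietal and 19.6 in pit cells, which is 3.72-fold above the parietal and at least 4.42-fold above the pit array. It has 1 probe set. Spcs2 read 74.4, 38.0 and 22.3, and Spcs1 read 49.4, 46.9 and 24.4 in that order of arrays. The further probe set of Spcs1 above the floor was likewise highest on the zymogenic and lowest on the pit array.

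The catalytic subunits of signal peptidase, Sec11a and Sec11c, are alternative to each other in the enzyme, and they ran in opposite directions. Sec11c read 55.8 in zymogenic, 28.5 in parietal and 18.5 in pit cells. Sec11a read 26.6 in zymogenic, 76.4 in parietal and 46.4 in pit cells, so that it was 2.87-fold lower on the zymogenic than on the parietal array. Neither has a further probe set above the floor. The group's median relative to all genes was 1.44 for zymogenic minus parietal, over 5 genes that run from -1.52 to 1.90 in log2 difference before all genes are taken off. On the pit array only Spcs1 and Sec11a exceeded the floor, so no median was taken against it.

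Oligosaccharyl transferase differed from the groups above in that most of its genes were highest on the parietal array. All 8 genes were measured, 6 exceeded the floor, and 4 of these were highest there, as were 38.6% of all genes. Of the 4, Dad1 was so by 1.19-fold over the nearer array. Relative to all genes, the median for zymogenic minus parietal was near 0, at -0.09 (6 genes). Rpn1, a large subunit that holds the chain near the active site, read 109 in zymogenic, 278 in parietal and 157 in pit cells. All 4 further probe sets of Rpn1 above the floor had the same highest and the same lowest array. The catalytic subunits behaved alike in being highest on the parietal array. Stt3a, which works beside the channel, read 134 in zymogenic, 245 in parietal and 181 in pit cells. Stt3b, which glycosylates sites that were skipped, read 155 on the parietal array against 62.5 in zymogenic and 61.8 in pit cells, a 2.48-fold difference from the nearer one. Its difference from the nearer array was 0.64 in log2 after quantile normalization.

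Smaller subunits of the transferase had other patterns. Krtcap2, a subunit of the Stt3a complex, was highest on the zymogenic array, with 242 there, 123 in parietal and 67.1 in pit cells, and a further probe set with 136, 112 and 44.3. Dad1, needed for the stability of the complex, was low on the pit array, at 69.3 against 179 in zymogenic and 213 in parietal cells, and a further probe set gave 69.5 on the pit array against 123.5 and 125 on the zymogenic and parietal arrays. Ddost read 43.4, 40.0 and 16.0 on the zymogenic, parietal and pit arrays. Rpn2 and Ostc were under the floor on all 3. The median relative to all genes was -0.09 for zymogenic minus parietal (6 genes), 0.17 for zymogenic minus pit and 0.78 for parietal minus pit (5 genes each). The first of these was 0.21 after quantile normalization and 0.48 without probe sets that can match several transcripts.

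**Figure D2:**
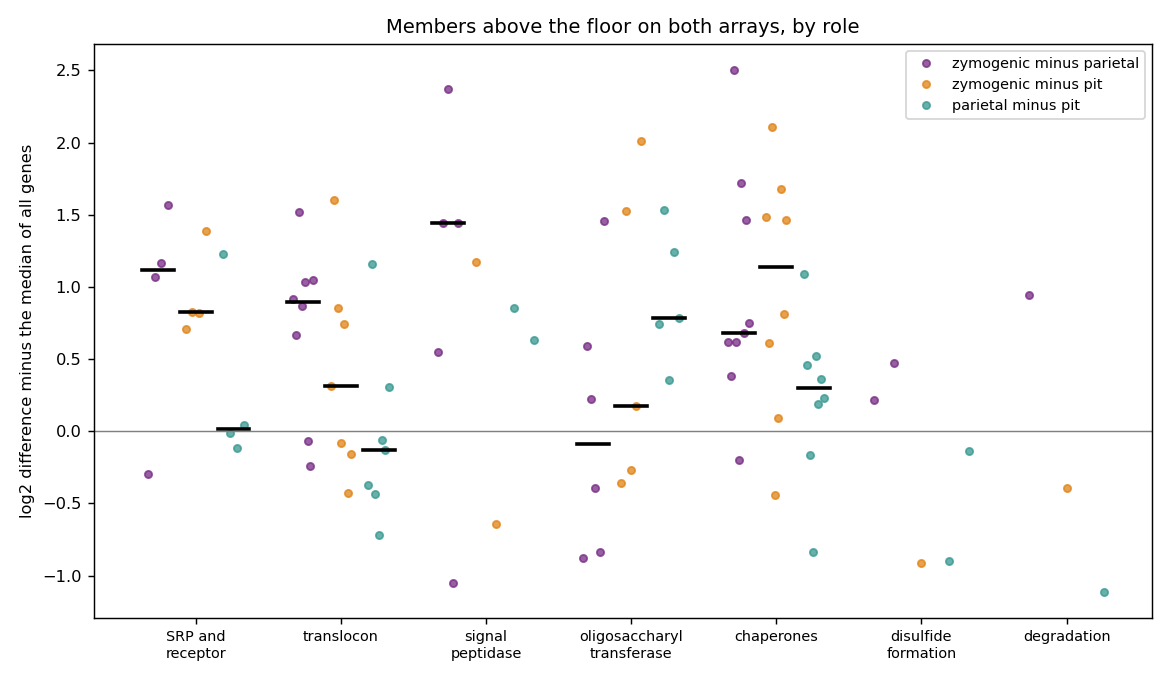
Log2 difference between arrays minus the median difference of all genes in that pair, for each member above the floor on both arrays, by role (points), for zymogenic minus parietal (purple), zymogenic minus pit (orange) and parietal minus pit (teal). Black bars are medians where at least 3 members could be used, and SRP is the signal recognition particle. Signal peptidase has the highest median, 1.44, and oligosaccharyl transferase lies at -0.09 for zymogenic minus parietal and at 0.78 for parietal minus pit.

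Chaperones and their partners numbered 11, of which 9 exceeded the floor and 6 were highest on the zymogenic array, as were 27.3% of all genes. Hspa5 (BiP), the main Hsp70 of the ER, was low on the pit array, at 119 against 297 in zymogenic and 268 in parietal cells, a 2.26-fold difference from the nearer one. A further probe set gave 71.6 on the pit array against 148 and 78.1 on the zymogenic and parietal arrays. It kept the order but did not show the 2-fold gap. Its pit value was 1.09-fold below the parietal one, and its zymogenic value was 1.89-fold above the parietal one. Of the genes that assist Hspa5, Hyou1 and Dnajc3 were at least 2-fold higher in zymogenic cells. Hyou1, which exchanges its nucleotide, read 162 in zymogenic, 39.8 in parietal and 42.0 in pit cells, a 3.87-fold difference, but its further probe set above the floor read 22.4, 32.7 and 19.2 and did not show it. Without probe sets that can match several transcripts, its log2 difference was -0.49. Dnajc3, a J-domain partner that also restrains the stress kinase PERK, read 128, 53.9 and 44.5 in that order, or 2.37-fold. Its further probe set above the floor read 25.4 on the zymogenic array and was under the floor on both others.

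Other genes of this group with the same highest array had smaller differences. Creld2, a stress-induced protein of the ER lumen, read 153 in zymogenic, 77.2 in parietal and 61.9 in pit cells. Dnajb11, another J-domain partner of Hspa5, read 51.5, 44.7 and 32.7, and Manf, which binds Hspa5 and slows its nucleotide exchange, read 34.9, 28.8 and 17.5 in the same order. The lectin chaperones that hold glycoproteins went elsewhere. Calr (calreticulin) was highest on the pit array, with 146 in zymogenic, 131 in parietal and 221 in pit cells, and both further probe sets kept that order. Canx (calnexin) was highest on the parietal array, with 131 in zymogenic, 209 in parietal and 138 in pit cells. Hsp90b1 (GRP94) read 32.3, 34.4 and 23.6, which is within 1.46-fold. Dnajb9 and Sdf2l1 were under the floor on all 3 arrays. The group's median relative to all genes was 0.68 for zymogenic minus parietal (9 genes), 1.14 for zymogenic minus pit and 0.30 for parietal minus pit (8 genes each).

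Genes for disulfide bonds held a contrast between the 2 oxidases that recharge protein disulfide isomerase. Ero1b read 174 on the zymogenic array against 5.01 in parietal and 13.5 in pit cells, both under the floor, so that it was at least 7.50-fold higher. A further probe set of Ero1b read 30.4 on the zymogenic array against 1.02 and 0.76 on the parietal and pit arrays. Ero1a was under the floor on the zymogenic array, at 5.79 against 78.5 in parietal and 81.3 in pit cells, and so at least 3.37-fold lower there. A further probe set of Ero1a gave 5.05 on the zymogenic against 41.7 and 56.1 on the parietal and pit arrays. Both stayed past 2-fold in each of the 3 other scalings tried. Ero1b is known as the form abundant in pancreatic cells, and Ero1a as the widely expressed form that hypoxia induces. As listed above, endocrine markers were also highest on the zymogenic array, and their part in the Ero1b value was not tested.

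Of the 4 isomerases among the members, 2 exceeded the floor. P4hb, the classical protein disulfide isomerase, was highest on the pit array, with 347 in zymogenic, 415 in parietal and 729 in pit cells, and has 1 probe set. Pdia6 read 33.5 in zymogenic, 33.4 in parietal and 9.17 in pit cells. Pdia3, which works with the lectin chaperones, and Pdia4 were under the floor on all 3 arrays. With only 2 genes above the floor on both arrays at most, no median was taken for this group.

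Degradation was represented by 3 genes, which differed in pattern. Herpud1, a membrane protein that organises the degradation complex and is strongly induced by ER stress, read 116 on the zymogenic array against 20.1 in parietal and 10.3 in pit cells, at least 4.98-fold higher. Its further probe set read 41.6 on the zymogenic array against 12.1 and 10.5 on the parietal and pit arrays. Edem1, which trims mannose from glycoproteins to be degraded, read 25.5 on the zymogenic array, just over the floor, against 9.38 and 6.06 on the parietal and pit arrays. Sel1l, the partner of the ubiquitin ligase Syvn1, read 32.5 in zymogenic, 23.4 in parietal and 47.7 in pit cells. Of its further probe sets above the floor, 1 was highest on the zymogenic array with 24.5, 14.1 and 7.58, and 1 on the pit array with 14.3, 23.4 and 27.0, so no order of lineages could be given for Sel1l.

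**Figure D3:**
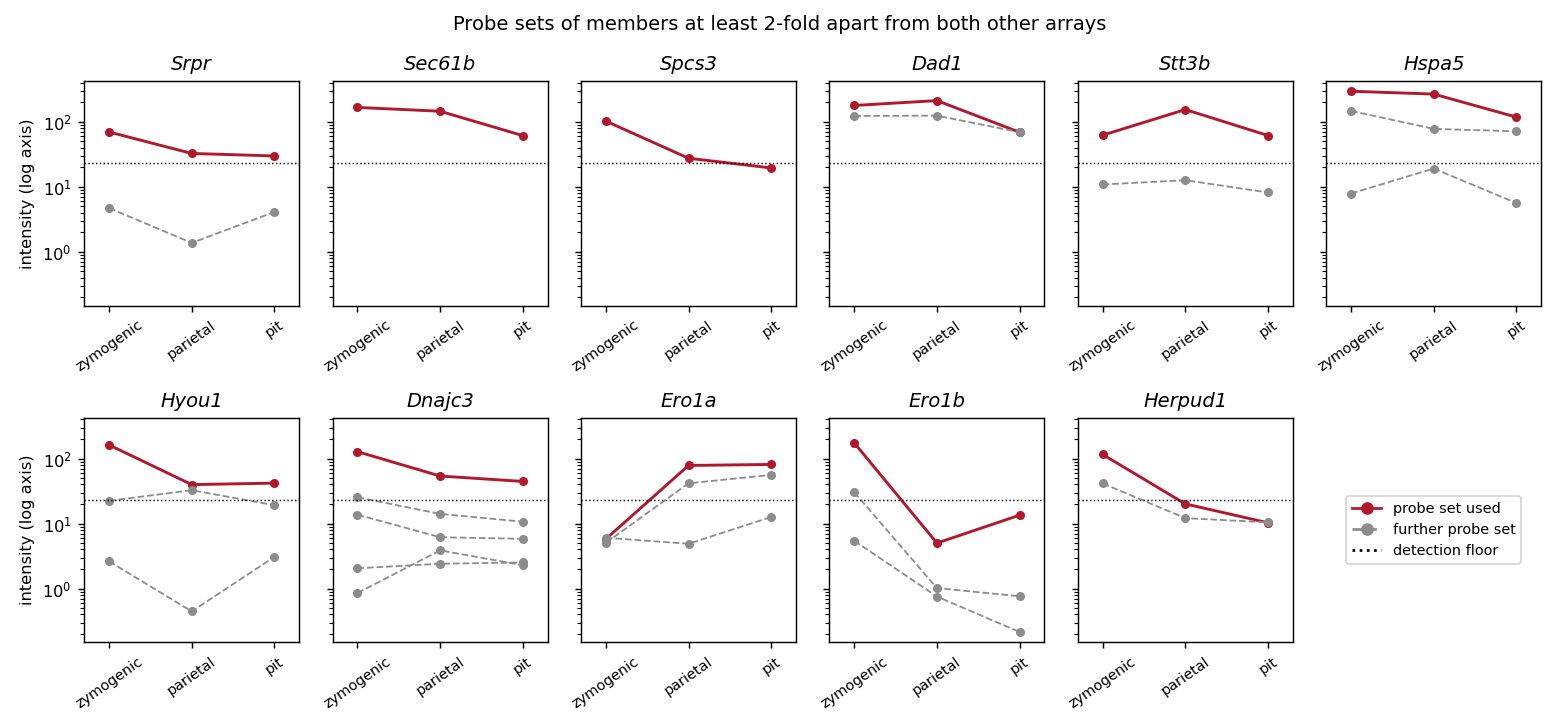
Intensity (log axis) on the zymogenic, parietal and pit arrays for every probe set of the 11 members that were at least 2-fold apart from both other arrays, with the probe set used in red, further ones in grey and the detection floor of 23.3 as a dotted line. Of members higher on 1 array, the further probe sets above the floor share the highest array for Dnajc3, Ero1b and Herpud1 but not for Hyou1. Of members lower on 1 array, they share the lowest array for Dad1, Hspa5 and Ero1a, in Hspa5 by 1.09-fold. Srpr, Sec61b, Spcs3 and Stt3b have none above the floor.

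Over all members, 18 had at least 1 further probe set above the floor, and in 16 of them every such probe set was highest on the same array as the one used. Of 24 such probe sets, 22 had the same highest and 18 the same lowest array.

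Other ER genes outside the 51, in 4 lists of 103 genes in all, were read the same way. Of these, 101 were measured and 45 exceeded the floor. In zymogenic cells 8 of the 45 stood 2-fold or more above both others, or 17.8% against 6.89% of all genes, and 2 at least 2-fold below, or 4.44% against 11.1%. Relative to all genes, their median log2 difference was 0.86 for zymogenic minus parietal (27 genes), 0.77 for zymogenic minus pit (19 genes) and 0.21 for parietal minus pit (27 genes). Bhlha15, among the 8, is also a zymogenic marker, and these lists were chosen with earlier results of these data known. The shares are therefore no independent support for those of the members.

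Among 18 sensors and regulators of ER stress, 6 exceeded the floor, and 3 transcription factors were higher on the zymogenic array. Xbp1, which drives growth of the ER in secretory cells, read 539 in zymogenic, 263 in parietal and 103 in pit cells, and was also 2-fold or more below both others in pit cells. Its 3 further probe sets above the floor had the same order. Bhlha15 (Mist1), a factor of zymogenic and acinar cells that also stands in the zymogenic marker list, read 109 on the zymogenic array against 2.49 and 0.53 on the parietal and pit arrays. Creb3 read 102, 35.1 and 21.0 on the zymogenic, parietal and pit arrays, but its further probe set above the floor read 41.3, 40.1 and 27.1. Ern2, the form of the IRE1 sensor known from mucus-secreting epithelium, was under the floor on the zymogenic array, at 6.78 against 130.1 in parietal and 105.6 in pit cells, at least 4.54-fold lower. Atf4, the transcription factor downstream of PERK, read 105, 116 and 126 on the zymogenic, parietal and pit arrays. The lowest of these values was 0.83 of the highest. The sensors Ern1, Atf6 and Eif2ak3 and the stress factor Ddit3 were under the floor on all 3 arrays.

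Of the further folding, translocon and transferase genes, 24 of 40 exceeded the floor, and Pdia2, Ppib, Serp1 and Prdx4 were 2-fold or more above both others in zymogenic cells. Pdia2, an isomerase known from the pancreas, read 2520.4 in zymogenic, 164 in parietal and 8.46 in pit cells, a 15.4-fold difference from the parietal array. Ppib (cyclophilin B), a proline isomerase of the ER, read 1167, 539 and 289.6 in that order, and its further probe set read 277, 211 and 69.5. Serp1, which protects membrane proteins at the translocon under stress, read 148, 62.2 and 48.0. Its further probe set read 83.3, 46.8 and 34.7, which is under 2-fold from the nearer array. Prdx4, a peroxidase that can also feed disulfide formation, read 66.5, 24.0 and 5.13. The further probe set of Prdx4 above the floor read 34.7 on the zymogenic array and was under the floor on both others. Sdf2 was lower on the zymogenic array, at 17.7 against 67.4 and 69.2 on the parietal and pit arrays. Dnajc10, a J-domain reductase of disulfides, was 2.00-fold higher on the parietal array, at 46.9 against 12.4 in zymogenic and 23.4 in pit cells, while a further probe set was highest on the zymogenic array at 33.8. Fkbp2 and Cnpy2 were at least 2-fold lower on the pit array, with 46.9 against 133 and 96.6 for Fkbp2 and 26.0 against 139 and 96.9 for Cnpy2 on the zymogenic and parietal arrays. The further probe set of Cnpy2 above the floor did not show this, with 30.1 on the pit array against 29.0 and 36.8.

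Of other degradation genes, 10 of 18 measured exceeded the floor. Os9, a lectin that hands misfolded glycoproteins to the ligase, was the 1 that stood 2-fold above both others in zymogenic cells, with 143 there, 65.0 in parietal and 69.7 in pit cells. The ligase Syvn1 itself read 84.9 in zymogenic, 27.4 in parietal and 43.1 in pit cells, which is just under 2-fold from the nearer array. Selenos was lower on the pit array, at 19.1 against 65.1 and 52.1 on the zymogenic and parietal arrays, but 1 of its 2 further probe sets was lowest on the zymogenic array. Of genes that build and trim the N-glycan, 5 of 25 measured exceeded the floor, 0 on all 3 arrays, and 0 were at least 2-fold apart from both others in either direction on any array. Promoters of Derl3, Alg12 and Syvn1 held the first form of the element, 3 of 83 genes of these lists with a window.

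**Figure D4:**
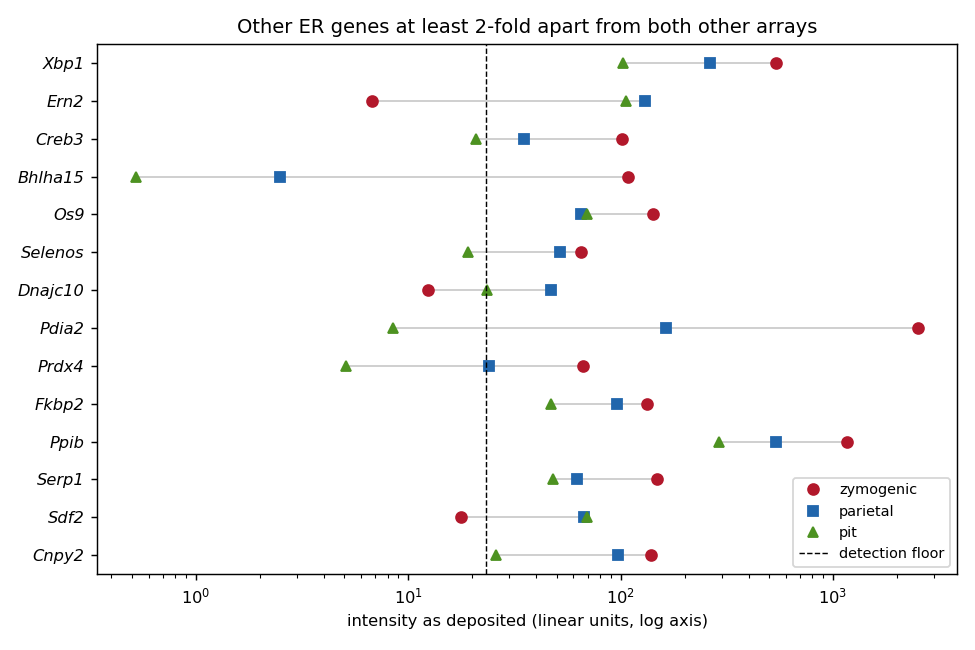
Intensity (linear units, log axis) on the zymogenic (red circles), parietal (blue squares) and pit (green triangles) arrays of the 14 further ER genes at least 2-fold apart from both other arrays, with the detection floor of 23.3 as a dashed line and 1 array per lineage. Pdia2 spans 2520.4 in zymogenic and 8.46 in pit cells, and Ern2 and Sdf2 have the red circle furthest left.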

How the data were processed

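RNA of laser-captured zymogenic, parietal and pit cells was measured on 3 Affymetrix whole-genome mouse arrays, 1 per lineage. The intensities are those the authors deposited in 1 table, and the probe summary, background correction and scaling behind them were not given in the sources used here. RiboAmp HS and Enzo kits served to amplify and label the RNA, per the labels' protocols, and the labels call it both total and nuclear RNA. Of 45101 probe sets, 34945 name 1 gene, 932 name several genes and were left out, and 9160 are in no gene table used here. Symbols came from the platform's annotation, updated through the gene identifier to RefSeq for 34741 probe sets. The floor of 23.3 is the highest, over arrays, of the 95th percentile of 80 receptor probe sets. Values below it were raised to it before folds were taken. The call was 2-fold from both other arrays. Promoter windows on chromosome 18 were not used here. Members and lists were chosen with earlier results of these data known. Named genes were the members 2-fold apart from both other arrays, those above the floor on all 3 arrays, the degradation genes, and up to 8 genes per further list past 2-fold. Spcs2, Sec11c, Ssr3, Ddost, Manf, Pdia6, Atf4, Syvn1, some markers and genes named as under the floor were added after their values were seen. Precision is limited by there being 1 array per lineage. Alternatives covered scaling, floor, pseudocount, probe set choice and threshold. Numpy 2.4.6, pandas 2.3.3 and matplotlib 3.10.9 ran under Python 3.11.15, and the calls were tested on simulated data.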

Additional observations from a re-analysis of the deposited data

How the results depend on the processing

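No paired analysis was possible because each lineage has 1 array. Scaling the arrays to 1 median left the member counts and medians within 1.5 times or the scatter between probe sets. The medians of all members relative to all genes stayed above 0 in every setting that gave one, at 0.42 to 0.76 for zymogenic minus parietal, 0.29 to 0.81 for zymogenic minus pit and 0.18 to 0.43 for parietal minus pit. The cause of the changes below was not tested. At the 99th-percentile floor (868) no member exceeded it, so the counts were 0 on every array, no median could be taken, and 1 further ER gene stayed 2-fold higher on the zymogenic array, where 8 did at the main floor. Counts at least 2-fold above both others were 13 (zymogenic) and 0 (parietal) after quantile normalization, 2 and 17 after scaling to BioB and BioC (below, the controls), and 2 on the parietal array without _s_at and _x_at probe sets. Counts below both were 2 (zymogenic) with those controls, 0 with the mean over probe sets, and, on the pit array, 1 after quantile normalization, 11 with the controls and 5 with the lower floor (90th percentile). At 1.5-fold, 13, 5 and 2 members were above both others on the zymogenic, parietal and pit arrays, and 2 and 7 below on the zymogenic and pit arrays. At 4-fold, 2 were above on the zymogenic and 0 on the parietal array, and 0 below on the zymogenic and pit arrays. Further ER genes higher on the zymogenic array numbered 2 with the controls and at 4-fold, and 5 with the pseudocount or the mean over probe sets. For zymogenic minus parietal, the median of all members was 0.42 with the controls, 0.49 with the lower floor, 0.48 with the pseudocount and 0.50 with genes above the floor on either array. For zymogenic minus pit it was 0.46 with the pseudocount and 0.29 with the mean over probe sets. For parietal minus pit it was 0.43 with the controls and 0.39 with the lower floor or the mean over probe sets. Signal recognition particle genes had 0.82 with the controls and 0.70 with the pseudocount (zymogenic minus parietal), and 0.50 with the pseudocount (minus pit). Translocon genes had, in zymogenic minus parietal, 1.17 after quantile normalization, 0.60 with the controls, 0.71 with the lower floor or either array, 0.59 with the pseudocount and 0.63 without _s_at and _x_at probe sets, in zymogenic minus pit 0.77 after quantile normalization, and in parietal minus pit 0.091 with the controls and 0.11 with the mean over probe sets, both of the other sign than the main -0.13. Signal peptidase genes had 0.63 after quantile normalization, 1.15 with the controls and 0.93 with the pseudocount. Oligosaccharyl transferase genes had, in zymogenic minus parietal, 0.21 after quantile normalization, -0.38 with the controls and 0.48 without _s_at and _x_at probe sets, and in zymogenic minus pit 0.85 with the lower floor, 0.98 without those probe sets and 0.59 with either array. Chaperones had, in zymogenic minus parietal, 0.99 after quantile normalization, 0.38 with the controls, 0.47 with the lower floor, 0.46 with the pseudocount and 0.50 with either array, and in zymogenic minus pit 1.68, 1.49, 0.93, 0.84 and 0.78 in the same settings and 0.79 with the mean over probe sets. Of the 11 members 2-fold apart from both others, 2 reversed against the nearer array, namely Srpr with the BioB and BioC controls (-0.13 in log2) and Hyou1 without _s_at and _x_at probe sets (-0.49). Single arrays, the loss of 5′ ends in amplification and probe sets under the floor limit every value.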
